A study of Mus musculus with 15 samples.

Results

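Kidney cortex of adult mice, taken as a mixture of all its cells and labelled by a standard kit, was read on 3 of the 15 mouse gene arrays of the study, called A, B and C. The 3 arrays were chosen by the label of their source, with earlier results of these data known. The labels give male adults of the Ren1c-YFP line, which carries a fluorescent reporter of the renin gene, with the strain unspecified. After the medulla was cut away with a scalpel, a small area of the cortex was lysed whole, so the reporter selected no cells here. No samples were pooled, and RNA went through 1 round of amplification with the WT-Ovation Pico kit (NuGEN) before biotin labelling. The other 12 arrays of the study hold embryonic and adult single cells and diluted cortex, and are not used here. Nothing says that the 3 libraries came from separate animals, so the spread between them may be technical.

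The cortex of the kidney holds the glomeruli, which filter the blood, and most of the tubule that takes back what was filtered. By volume it is mainly proximal tubule, whose cells recover glucose, amino acids, phosphate and protein through a brush border. They draw their energy from mitochondria that burn fatty acids, make glucose, and clear drugs and hormones. The thick ascending limb, distal convoluted tubule and collecting duct follow, and vessels, mesangium, fibroblasts and macrophages lie between them.

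Levels are log2 probe set signals, as deposited, and a level without array letters is a mean ± SD over the 3 arrays. Probe sets differ in how strongly they bind their target, so the order of genes is an order of signal and not of transcript number. In whole tissue, fewer cells of a type and less RNA per cell cannot be told apart. In all, 19938 genes had a probe set with 1 symbol, and 999 of them had several, of which the brightest was used. The floor was taken from 1190 olfactory and vomeronasal receptor genes, sensory genes that the kidney is not known to use widely. Their median was 4.19 on array A and 4.22 on both B and C, and their 99th percentile, used as the upper edge of the background, was 6.52, 6.31 and 6.31. By that measure 8528 genes, or 42.8% of all, stood above background on all 3 arrays. Another 9923, or 49.8%, lay within it on all 3, and 1487 were above on some arrays only. The 3 brightest receptor genes, Olfr1174 (7.98 ± 0.48), Olfr314 (7.18 ± 0.40) and Olfr91 (6.76 ± 0.15), were themselves above this edge on every array, as were 7 receptor genes in all.

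The arrays gave nearly the same order of genes. Across genes, which are not independent replicates, Pearson correlations were 0.990 for A and B, 0.993 for A and C and 0.994 for B and C. Of the brightest 100 genes by mean, 89 were among the brightest 100 of every array, and of the brightest 1000, 934 were among the brightest 1000 of every array. The median SD of a gene was 0.0439 in the brightest 100 and 0.0655 in the brightest 1000, against 0.125 over all genes. Most neighbours in the brightest 100 could not be put in order. These genes span 1.05 log2 units, a 2.07-fold range, with a median gap of 0.00602 between neighbours, and in 1 of 99 neighbouring pairs, Eef1a1 and Cox6c at ranks 1 and 2, the arrays of the brighter gene all exceeded those of the next.

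The 3 genes given as markers of this tissue were all bright. Kap, the kidney androgen-regulated protein of the mouse proximal tubule, measured 12.85, 12.86 and 12.73 on arrays A, B and C, at rank 32. Umod, which encodes uromodulin, the main protein of normal urine and a product of the thick ascending limb, measured 12.16, 12.06 and 12.11, at rank 159. Slc34a1, the sodium phosphate cotransporter of the proximal brush border, measured 10.90, 11.02 and 10.95, at rank 648. The 3 arrays lay within 0.13 log2 units of each other for each marker, and all of these values stand far above the receptor edge. The level fell steeply down the ranks, from 13.42 at rank 1 through 12.37 at rank 100 and 10.41 at rank 1000 to 7.75 at rank 5000 and 6.22 at rank 10000.

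**Figure D1:**
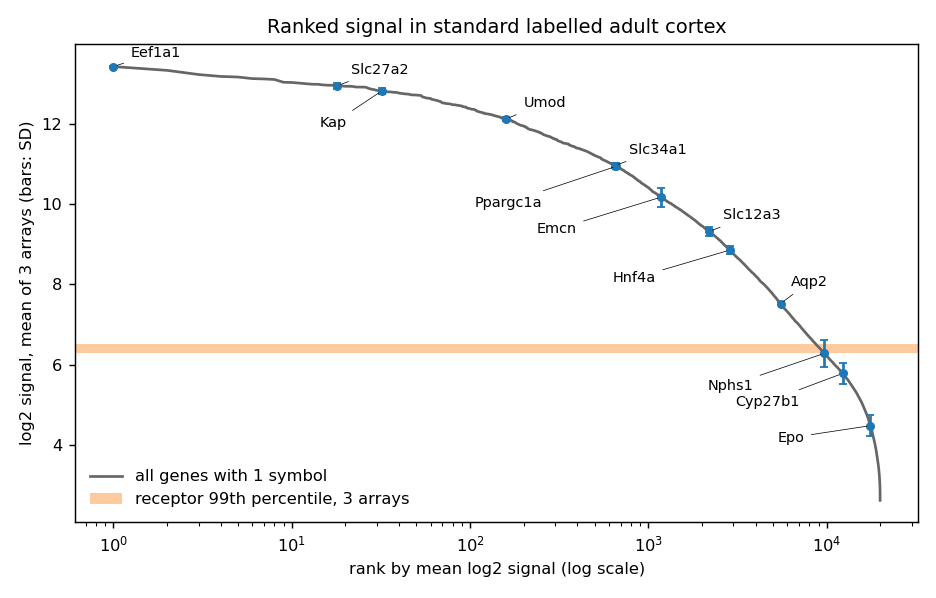
Mean log2 signal over 3 arrays (vertical axis, bars are SD) of all 19938 genes against their rank (horizontal log axis), with named genes as points and the receptor 99th percentile of the 3 arrays as a band. Kap, Umod and Slc34a1 sit at 12.81, 12.11 and 10.95, while Nphs1, Cyp27b1 and Epo sit at 6.29, 5.79 and 4.49, at or under the band.

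Mitochondria and ribosomes filled most of the brightest ranks. Sorted by function after their values were seen, the brightest 100 genes (0.502% of all) held 30 of oxidative phosphorylation and 22 of protein synthesis. A further 15 are genes known chiefly from kidney and other epithelia, 7 encode chaperones, 4 are redox enzymes and 22 have other functions. Rank 1 was Eef1a1, the elongation factor that brings transfer RNA to the ribosome, with 13.44, 13.41 and 13.40 on arrays A, B and C. Cytochrome c oxidase, which hands electrons to oxygen, gave Cox6c (13.32 ± 0.04) and Cox6b1 (13.22 ± 0.14) at ranks 2 and 3. Its further subunits Cox5b (12.91 ± 0.04) and Cox6a1 (12.84 ± 0.05) were also among the first 30.

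Of those first 30 genes, 12 belong to oxidative phosphorylation. The ATP synthase gave its small subunits Atp5mpl (13.16 ± 0.02) and Atp5j2 (13.12 ± 0.13), the membrane ring subunit Atp5g3 (12.98 ± 0.04), the catalytic subunit Atp5b (12.91 ± 0.07) and its inhibitor Atpif1 (13.10 ± 0.03). Ndufa4 (13.11 ± 0.02), first described in complex I, Ndufa1 of complex I (12.96 ± 0.01) and Uqcrh of complex III (12.99 ± 0.02) complete the group. Protein synthesis added 7 genes of the first 30. Beside Eef1a1 these were the ribosomal proteins Rps4x (13.17 ± 0.02), Rps6 (12.94 ± 0.02), Rpl23 (12.93 ± 0.02), Rplp0 (12.91 ± 0.04) and Rps12 (12.85 ± 0.06), and Tpt1 (12.98 ± 0.03), a growth-linked protein whose mRNA is translated like theirs. Of the rest, Sod1 (12.92 ± 0.07) removes superoxide, Txn1 (12.90 ± 0.04) reduces disulfides, Hspe1 (12.83 ± 0.01) is a mitochondrial chaperonin and Dbi (12.95 ± 0.03) binds acyl-CoA. Calm2 (13.02 ± 0.02) encodes calmodulin, Itm2b (12.93 ± 0.03) a membrane protein, Anapc13 (13.03 ± 0.05) a subunit of the anaphase-promoting complex, and Gas5 (13.01 ± 0.12) a host transcript of small nucleolar RNAs.

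Genes of kidney epithelium began at rank 17. Rida, a deaminase that clears reactive imines left by amino acid metabolism, measured 13.01, 12.89 and 12.96 on arrays A, B and C. Slc27a2, which takes up long fatty acids and joins them to coenzyme A, gave 12.99, 12.86 and 12.97. Keg1, named for its expression in kidney, gave 12.93, 12.78 and 12.92. Array B was the lowest for all 3, by little more than their SDs of 0.06 to 0.09. Below rank 30 came S100g, the calcium buffer calbindin D9k of the distal tubule, with 12.79, 12.83 and 12.82, and Kap. The sulfotransferase Sult1d1 (12.79 ± 0.01), the aldehyde reductase Akr1a1 (12.74 ± 0.02), the beta defensin Defb1 (12.70), and the epoxygenase Cyp2j5 (12.67 ± 0.04) followed. Gpx3 (12.66 ± 0.02), the glutathione peroxidase that the kidney secretes into plasma, the amino acid transporter Slc7a13 (12.63 ± 0.11), the glucuronosyltransferase Ugt2b38 (12.53 ± 0.14) and the organic anion transporter Slc17a3 (12.41 ± 0.10) belong here too, with Spink1 and Ddah1.

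Promoters are printed for 3 of these bright genes, to show the letters that are counted over whole groups next. They are Kap and Sult1d1, from the kidney genes of the brightest 100, and Rps4x, the brightest ribosomal protein gene, all on the minus strand of GRCm38.p6 as the RefSeq promoter table gives them. Each runs from 250 bases before to 50 bases after the start of the transcript. Capitals mark exact matches on either strand of TATAAA (the TATA box), GTTAATNAT (the type bound by HNF1), CAAAGTCCA (the type bound by HNF4) and CCGCCC (the GC box), as letters and not as shown sites.
Kap, chr6:133853618-133853917: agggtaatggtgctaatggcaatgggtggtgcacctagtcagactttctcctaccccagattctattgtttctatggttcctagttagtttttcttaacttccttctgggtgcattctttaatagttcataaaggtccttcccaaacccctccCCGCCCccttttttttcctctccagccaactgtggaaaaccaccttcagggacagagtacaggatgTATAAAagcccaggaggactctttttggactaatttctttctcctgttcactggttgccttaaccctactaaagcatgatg
Sult1d1, chr5:87568957-87569256: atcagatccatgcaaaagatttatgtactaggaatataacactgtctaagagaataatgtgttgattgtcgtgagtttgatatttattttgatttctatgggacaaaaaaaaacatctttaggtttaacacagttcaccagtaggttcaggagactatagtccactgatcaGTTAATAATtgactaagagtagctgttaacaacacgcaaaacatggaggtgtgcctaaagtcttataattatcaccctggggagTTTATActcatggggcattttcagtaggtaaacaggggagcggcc
Rps4x, chrX:102189342-102189641: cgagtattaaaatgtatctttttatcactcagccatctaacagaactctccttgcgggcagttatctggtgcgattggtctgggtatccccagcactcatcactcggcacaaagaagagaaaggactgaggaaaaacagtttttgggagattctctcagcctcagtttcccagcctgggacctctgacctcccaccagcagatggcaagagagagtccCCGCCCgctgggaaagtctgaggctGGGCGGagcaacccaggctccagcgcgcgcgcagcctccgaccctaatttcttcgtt
Kap holds TATAAA 31 bases before its start and CCGCCC 97 bases before it. Sult1d1 holds GTTAATNAT 79 bases before its start and, after the start, the TATA letters on the other strand. Rps4x holds CCGCCC 32 and 7 bases before its start and no TATA letters.

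The same letters were counted in every promoter of the table. TATAAA was found in 4 of 11 promoters of the kidney epithelium genes of the brightest 100 (36.4%) and in 18.7% of 75 promoters of the proximal tubule lists, against 8% of 50 ribosomal protein promoters and 13.6% of all 32851 promoters. Receptor genes, which set the floor, had it in 40.5% of 1016 promoters. CCGCCC was found in 27.3% of kidney epithelium promoters, 40% of proximal tubule promoters and 60% of ribosomal promoters, against 0.886% of receptor promoters and 35.7% of all. The ratio of observed to expected CpG pairs had a median of 0.238 in the kidney epithelium class, 0.320 in the proximal tubule lists, 0.825 in the oxidative phosphorylation class and 0.917 in ribosomal genes, against 0.107 in receptors and 0.384 in all promoters. The HNF1 type letters stood in 1 of 11 kidney epithelium promoters and 1 of 75 proximal tubule promoters (1.33%), against 2.26% of receptor promoters and 0.801% of all. The HNF4 type letters stood in 0 of 11 kidney epithelium promoters and 3 of 75 proximal tubule promoters (4%), against 0.197% of receptor promoters and 0.475% of all. Genes with several starts count once for each start, and matches in 11 promoters give shares with wide errors.

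The lists of kidney cell types were chosen by hand with earlier results of these data known. Of their 276 genes, 252 were measured, and the others had no probe set of 1 symbol. Those of the tubule were the brightest of the measured genes. The 6 lists for segments of the tubule had 113 of 128 measured genes above background on all arrays, and 35 of these genes lay among the brightest 1000 (all genes: 42.8% and 5.02%). The list for medulla and urothelium had 4 of 10 above background and 0 among the brightest 1000. The 5 lists for glomerulus and vessels had 37 of 62 above background and 2 among the brightest 1000. The lists for fibroblasts, leukocytes and erythroid cells had 17 of 40 above and 0 among the brightest 1000, and the embryonic list had 2 of 13 and 0. Only Anpep was on more than 1 cell type list.

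**Figure D2:**
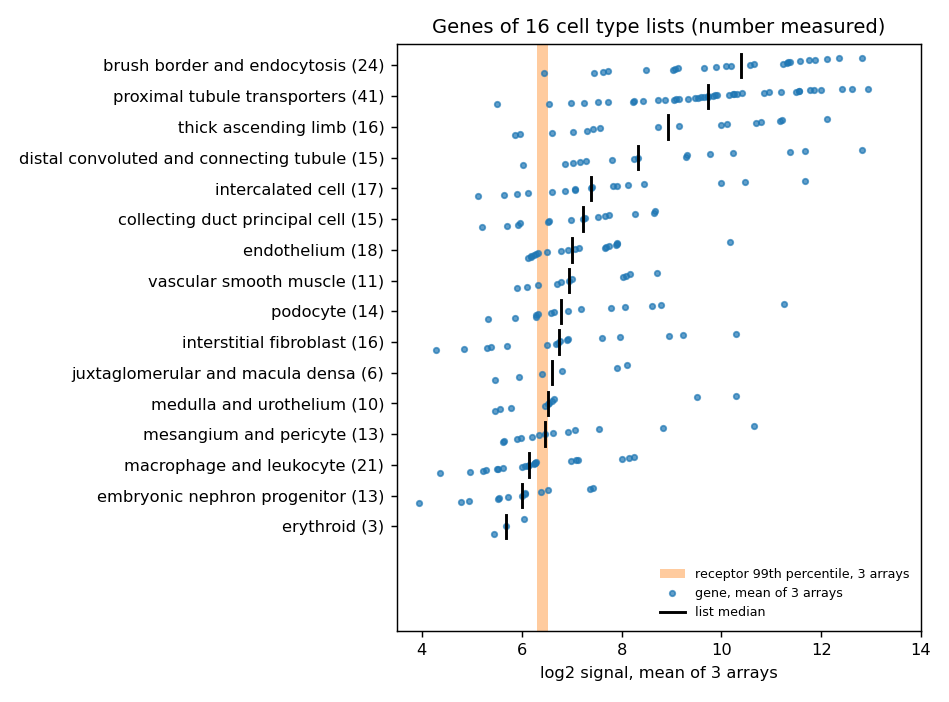
Mean log2 signal over 3 arrays (horizontal axis) of each measured gene (points) on the 16 cell type lists, with the list median as a black bar and the receptor 99th percentile of the 3 arrays as a band. The median falls from 10.39 for brush border and endocytosis and 9.74 for proximal tubule transporters to 6.01 for the embryonic list and 5.68 for erythroid genes, under the band.

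Nearly all transporters on the proximal tubule list, chosen by hand with earlier results of these data known, were detected. Of 41 measured, 40 stood above background on all arrays, 13 were among the brightest 1000, and the list median was 9.74, beside 6.23 for all genes. After Slc27a2, Slc7a13 and Slc17a3 the brightest was Slc3a1, the heavy chain of the cystine transporter, with 12.09, 11.95 and 11.97 on arrays A, B and C. Its light chain Slc7a9 lay at 9.73 ± 0.11. The glucose transporters Slc5a2 (9.47 ± 0.13), Slc5a1 (9.05 ± 0.15) and Slc2a2 (8.87 ± 0.08), the proton exchanger Slc9a3 (8.22 ± 0.12) and the water channel Aqp1 (8.74 ± 0.36) lay lower in signal but clear of the floor. The dimmest were a further phosphate cotransporter, Slc34a3 (6.92 to 7.05), the efflux pump Abcc4 (6.55 ± 0.12) and the proline and glycine transporter Slc36a2 (5.50 ± 0.17). Slc36a2 measured 5.58, 5.62 and 5.30 on arrays A, B and C, and was the only transporter of the list within background on all 3. Of all 371 solute carriers on the arrays, 183 were above background (49.3%, all genes: 42.8%).

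Genes on the list for brush border and endocytosis, which also holds other proximal tubule genes such as Kap and Miox, were as bright. Of 24 measured, 23 were above background on all arrays and 12 among the brightest 1000, with a median of 10.39. Kap led, followed by Cltrn (12.36 ± 0.01), the collectrin that carries amino acid transporters to the membrane, Miox (12.11 ± 0.12), the enzyme that opens inositol, and Mep1a (11.87 ± 0.17), a meprin protease. The receptors that take up filtered protein were high, Lrp2 (megalin) at 11.32 ± 0.06 and Cubn (cubilin) at 10.58 ± 0.11, while their partner Amn gave 7.45 ± 0.18. Treh (7.63 ± 0.04), a disaccharidase, and Xpnpep2 (6.44 ± 0.14), an aminopeptidase, closed the list, and Xpnpep2 passed the edge on arrays B and C but not on A.

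The thick ascending limb came next along the tubule. Here 13 of 16 genes were above background on all arrays and 5 among the brightest 1000 (31.2%, beside 31.7% of proximal tubule transporters), with a median of 8.94. Umod was followed by the claudin Cldn10 (11.21 ± 0.09), the potassium channel Kcnj1 (11.18 ± 0.09) and Egf (10.79 ± 0.15), which encodes epidermal growth factor. The salt transporter Slc12a1, target of loop diuretics, measured 10.72, 10.59 and 10.79 on arrays A, B and C. The transcription factors Irx2 (6.60 ± 0.12) and Irx1 (5.96 ± 0.18) and the claudin Cldn14 (5.87 ± 0.21) were the dimmest.

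For the distal convoluted and connecting tubule, 14 of 15 were above background on all arrays and 3 among the brightest 1000, with a median of 8.32. S100g was followed by the potassium channel Kcnj16 (11.68 ± 0.08), the calcium buffer Calb1 (11.38 ± 0.23) and Tmem52b (10.22 ± 0.11). The thiazide-sensitive salt transporter Slc12a3 measured 9.27, 9.44 and 9.24 on arrays A, B and C. The calcium and magnesium channels Trpv5 (7.03 ± 0.16) and Trpm6 (6.87 ± 0.22) stood close to the edge, and Klhl3 (6.03 ± 0.27), part of the ligase that controls the kinases of this transporter, passed it on array B only.

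Collecting duct genes were weaker still. Among principal cell genes 10 of 15 were above background on all arrays and 0 among the brightest 1000, with a median of 7.23. The pump regulator Fxyd4 (8.67 ± 0.01), the sodium channel subunits Scnn1a (8.66 ± 0.35) and Scnn1g (7.74 ± 0.19) and Tmem45b (8.26 ± 0.18) were the brightest. Aqp2, the vasopressin-regulated water channel, measured 7.48, 7.53 and 7.55 on arrays A, B and C. Within background on all arrays lay the water channel Aqp4 (5.93 ± 0.15), the hormone Stc1 (5.97 ± 0.18), the mineralocorticoid receptor Nr3c2 (5.70 ± 0.18) and the transcription factor Elf5 (5.20 ± 0.13).

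Intercalated cells, which secrete acid or base, had 13 of 17 genes above background and 2 among the brightest 1000, with list medians of 7.27, 7.35 and 7.37 on arrays A, B and C. Their proton pump subunits led, with Atp6v1g3 at 11.68 ± 0.17, Atp6v0a4 at 10.46 ± 0.09 and Atp6v0d2 at 9.73 to 10.14, before the ammonia channel Rhcg (8.45 ± 0.05). The chloride exchanger Slc26a4 (7.92 ± 0.15) and the anion exchanger Slc4a1 (6.87 ± 0.07), known from base- and acid-secreting cells, were both above the edge. Of the 4 genes within background on all arrays, Insrr (5.90 ± 0.13), Clnk (5.65 ± 0.20) and Slc26a7 (5.12 ± 0.11) were the dimmest.

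Genes of medulla and urothelium were listed because the medulla had been cut away. Of 10 measured, 4 were above background on all arrays (all genes: 42.8%), with a list median of 6.53. Those were Cryab (10.29 ± 0.07), a small heat shock protein, Slc5a3 (9.51 ± 0.09), an inositol transporter induced by salt, the urea transporter gene Slc14a2 (6.65 ± 0.14) and the uroplakin Upk2 (6.54 ± 0.19). Upk3a (5.79 ± 0.10) and the keratins Krt5 (5.56 ± 0.25) and Krt20 (5.47 ± 0.04) lay within background on all arrays. The uroplakins Upk1a (6.48 ± 0.06) and Upk1b (6.61 ± 0.38) and the betaine transporter Slc6a12 (6.53 ± 0.13) passed the edge on arrays B and C only. Slc14a2, known from the medulla, and Upk2, known from the urothelium, passed the edge by little and Cryab and Slc5a3 by far. The share above background was near that of all genes, so the list does not show how completely the medulla was removed.

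Podocyte genes lay mostly at low signal. For podocytes, the cells of the filter, 9 of 14 genes were above background on all arrays (64.3%, all genes: 42.8%). Their median was 6.79, beside 6.23 for all genes. The brightest, Cd2ap (11.26 ± 0.12), an adaptor of the slit diaphragm, is used by many other cells. Clic5 (8.80 ± 0.06), the matrix protein gene Npnt (8.60 ± 0.66) and the cell cycle inhibitor Cdkn1c (8.07 ± 0.16) followed. Npnt measured 7.99, 9.31 and 8.51 on arrays A, B and C, so that A and B lay further apart than for most genes. Nephrin itself, Nphs1, measured 6.65, 5.98 and 6.23, above the edge on array A only, and Synpo (5.86 ± 0.14) and Kirrel (5.32 ± 0.09) lay within background on all arrays.

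Vessel genes lay at low to middle signal. Of 18 endothelial genes, 11 were above background on all arrays (61.1%, all genes: 42.8%) and 0 among the brightest 1000. The list medians were 6.85, 6.97 and 7.04 on arrays A, B and C. The sialomucin Emcn measured 9.90, 10.35 and 10.25 on them, and next came the phosphatase Ptprb (7.92 ± 0.20), the cadherin Cdh5 (7.91 ± 0.31) and Pecam1 (7.90 ± 0.35). Tie1, Erg and Esam (6.12 to 6.18) lay within background on all arrays. Of 11 smooth muscle genes 7 were above (63.6%), led by the myosin light chain Myl9 (8.70 ± 0.61), Cald1 (8.18 ± 0.20), Tpm2 (8.09 ± 0.43) and the actin Acta2. Lmod1 (6.11 ± 0.21) and Cnn1 (5.90 ± 0.23) were within background.

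Of 13 mesangial and pericyte genes, 7 were above background on all arrays (53.8%, near the 42.8% of all genes) and 5 within it. Anpep (10.65 ± 0.01), an aminopeptidase, is also a gene of the brush border, and the next brightest was the pericyte gene Rgs5 (8.83 ± 0.23), a regulator of G protein signals. The potassium channel Kcnj8 (7.55 ± 0.18) and the guanylate cyclase subunit Gucy1a1 (7.07 ± 0.20) followed. The other cyclase subunit, Gucy1b1 (5.62 ± 0.11), Ndufa4l2 (5.65 ± 0.09) and desmin, Des (5.90 ± 0.05), were the dimmest. Pdgfrb, the receptor that defines these cells, measured 5.84, 6.06 and 6.05 on arrays A, B and C, within background on all 3.

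The juxtaglomerular and macula densa list could be read from 6 genes, of which 3 were above background on all arrays (50%, near the 42.8% of all genes). Renin was not analysed here. The LIM protein gene Crip1 (8.11 ± 0.25), the angiotensin receptor Agtr1a (7.90 ± 0.28) and the adenylyl cyclase Adcy6 (6.80 ± 0.13) were above background on all arrays. The connexin Gja5 (6.40 ± 0.30) was above it on array B only. Nos1 (5.94 ± 0.19) and Ptgs2 (5.47 ± 0.13), enzymes known from the macula densa, were within background on all arrays.

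Genes listed for interstitial fibroblasts were detected unevenly, and those for leukocytes had a median near that of all genes. Which cells gave their signal was not tested. Of 16 fibroblast genes 11 were above background (68.8%, all genes: 42.8%), with a median of 6.75. They were led by the matrix protein gene Sparc (10.29 ± 0.17), the ecto-enzyme Nt5e (9.24 ± 0.56), the intermediate filament Vim (8.96 ± 0.12) and the elastic fibre gene Fbln5 (7.98 ± 0.20). Meg3 (5.30 ± 0.11), Postn (4.84 ± 0.13) and Lum (4.28 ± 0.31) were at the floor. Of 21 macrophage and leukocyte genes 6 were above background (28.6%) and 11 within it on all arrays, where 42.8% and 49.8% of all genes lie. Their median was 6.14, beside 6.23 for all genes. The antigen presentation genes H2-Ab1 (8.25 ± 0.01) and H2-Aa (8.14 ± 0.07), the adaptor Tyrobp (8.01 ± 0.30) and the growth factor receptor Csf1r (7.12 ± 0.10) were the brightest, and Laptm5 (5.22 ± 0.04), Adgre1 (4.96 ± 0.05), the gene of the F4/80 antigen, and Itgam (4.36 ± 0.08) the dimmest. The 3 erythroid genes, Alas2 (6.04 ± 0.10), Klf1 (5.68 ± 0.22) and Epb42 (5.45 ± 0.21), were all within background. Haemoglobin genes were not analysed here.

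Genes of embryonic nephron progenitors served as a class that adult cortex should lack. Of 13, 9 were within background on all arrays, among them the progenitor factor Six2 at 5.35, 5.69 and 5.51 on arrays A, B and C. Eya1 (4.94 ± 0.11), Meox2 (4.79 ± 0.09) and Lin28b (3.94 ± 0.04) were the dimmest. Sall1 (7.43 ± 0.09) and Hoxd11 (7.37 ± 0.04), which adult kidney is known to keep, were above it. Over the 16 lists, 57 of 252 genes lay within background on all arrays (22.6%, where 49.8% of all genes lie), 23 were above on some arrays, and 172 were above on all.

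Among functions, energy metabolism held the highest signals. The 18 function lists hold 471 genes, of which 397 were measured, so counts are of measured genes and not of whole pathways. Of 36 measured genes for the respiratory chain and ATP synthase (46 listed) 35 were among the brightest 1000, where 5.02% of all genes lie, and the median was 12.28. The dimmest were Uqcrc1 (9.90 ± 0.05) and Ndufv1 (10.49 ± 0.04), still far above the floor. Of 17 citric acid cycle genes 13 were among the brightest 1000, with a median of 11.31. They were led by the dehydrogenase subunit Idh3g (12.11 ± 0.02) and the succinate dehydrogenase subunits Sdhc (11.84 ± 0.03) and Sdhb (11.81 ± 0.03). Sdhd (8.88 ± 0.04), which anchors the same enzyme in the membrane, gave the lowest signal of the cycle.

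**Figure D3:**
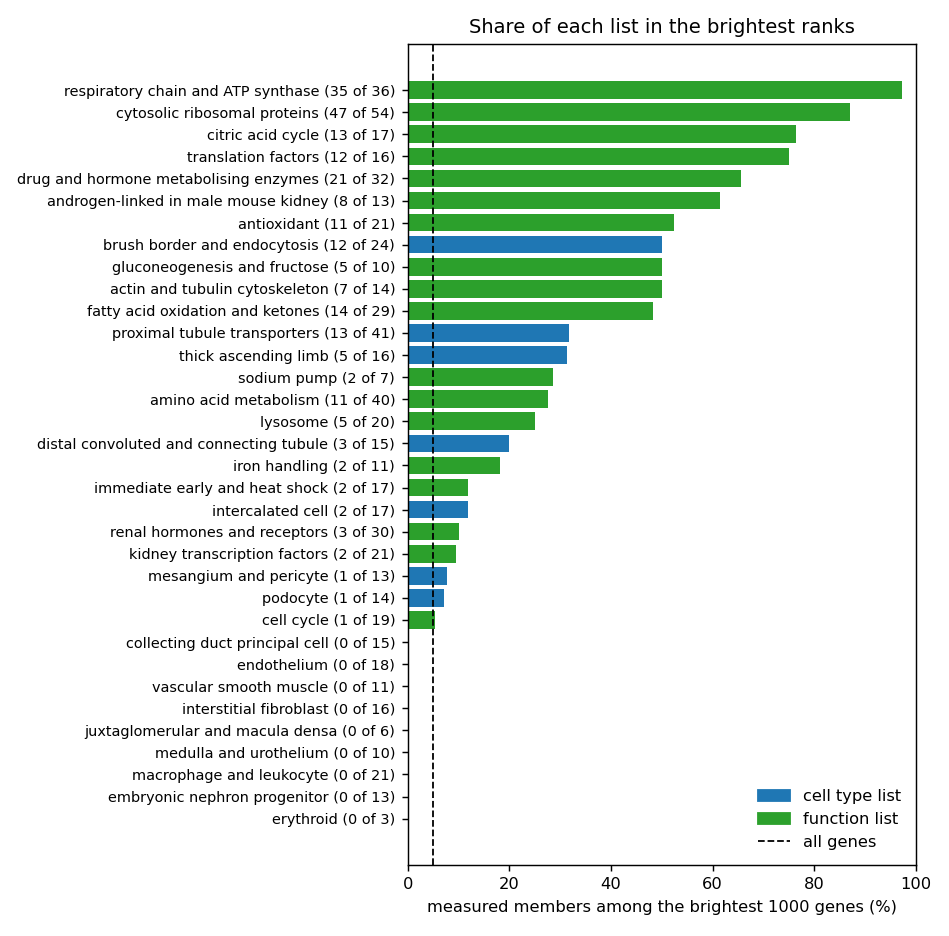
Share of each list's measured genes that lies among the brightest 1000 (bars, percent, number in brackets), for cell type lists (blue) and function lists (green), with 5.02% for all genes as a dashed line. Respiratory chain and ribosomal lists reach 35 of 36 and 47 of 54 genes, and 9 cell type lists have none.

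Fatty acid oxidation, the main fuel of the proximal tubule, was detected for every measured gene of its list (31 listed). All 29 genes were above background on all arrays and 14 among the brightest 1000, with a median of 10.36. Etfa (12.44 ± 0.02), which takes electrons from the acyl-CoA dehydrogenases, Decr1 (12.21 ± 0.03), Acsm2 (11.85 ± 0.05) and the medium-chain dehydrogenase Acadm (11.76 ± 0.21) led. The short-chain dehydrogenase Acads (6.72 ± 0.07) and Bdh1 (7.24 ± 0.29), an enzyme of ketone use, were low. Cpt1a, the gate of fatty acid entry into mitochondria, gave 9.68, 9.39 and 9.59 on arrays A, B and C.

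Glucose and amino acid metabolism were likewise detected for every measured gene. All 10 measured genes of gluconeogenesis and fructose use (14 listed) were above background, with Mdh1 (12.81 ± 0.02), Pgk1 (12.45 ± 0.06), Fbp1 (11.52 ± 0.14) and Tpi1 (11.21 ± 0.02) the brightest. Pck1, which commits carbon to glucose, measured 10.15, 9.06 and 9.72 on arrays A, B and C, and the terminal phosphatase G6pc 9.79, 9.42 and 9.80. Array B was lowest for both. All 40 measured genes of amino acid metabolism (44 listed) were above background and 11 among the brightest 1000. After Rida these were led by Odc1 (12.28 ± 0.03), the first enzyme of polyamine synthesis, Hgd (11.94 ± 0.01) of tyrosine breakdown and Gatm (11.78 ± 0.08), which starts creatine synthesis. Aldh4a1, Bckdha and Arg2 (6.77 to 7.06) closed the list.

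Enzymes that handle drugs and hormones were bright. Of 32, 30 were above background and 21 among the brightest 1000, with a median of 10.92. Sult1d1, Akr1a1, Cyp2j5 and Ugt2b38 led at 12.53 to 12.79. Cyp27b1, the enzyme that activates vitamin D and is known from the proximal tubule, measured 6.09, 5.62 and 5.65 on arrays A, B and C, the only gene of the list within background on all 3. Aldh1a1 (6.44 ± 0.19) passed the edge on arrays B and C. All 21 antioxidant genes were above background and 11 among the brightest 1000, with Sod1, Txn1, Gpx3 and Gpx1 (12.57 ± 0.06) in front. Hmox1 (6.82 ± 0.10), the stress-induced haem oxygenase, was the dimmest.

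The machinery shared by all cells was bright too. Of 54 measured ribosomal protein genes (78 listed) 53 were above background and 47 among the brightest 1000, with a median of 12.18. Rpl12, by contrast, measured 5.78, 5.82 and 6.04 on arrays A, B and C, within background, and Rpl30 (7.26 ± 0.16) and Rplp2 (7.44 ± 0.07) were low, although all are parts of the same particle. Of these genes 38 had several probe sets, of which the brightest was taken, against 7 of 36 for the respiratory chain and 0 of 41 for proximal tubule transporters. All 16 translation factors were above background and 12 among the brightest 1000, from Eef1a1 to Eif5a (8.87 to 9.08).

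Lysosomal genes, all 20 above background with a median of 9.58, were led by Cd63 (12.74 ± 0.04), the cathepsin Ctsl (12.16 ± 0.03), Lamp2 (12.04 ± 0.08) and Lamp1 (10.80 ± 0.09). The acid glucosidase Gaa (6.68 ± 0.12) was the dimmest. All 14 cytoskeletal genes were above background, from the myosin light chain Myl6 (12.73 ± 0.09) to the keratin Krt18 (7.51 ± 0.35). The sodium pump, which drives the transport of the whole nephron, was read from its beta and FXYD subunits, Atp1b1 (12.58 ± 0.02), Fxyd2 (12.04 ± 0.07) and Atp1b3 (9.93 ± 0.24). Its main alpha subunit was not analysed here. Iron handling was led by the ferritin chains Fth1 (12.77 ± 0.01) and Ftl1 (11.15 ± 0.09), and Lcn2 (5.81 ± 0.08), a protein known to rise in kidney injury, was within background.

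**Figure D4:**
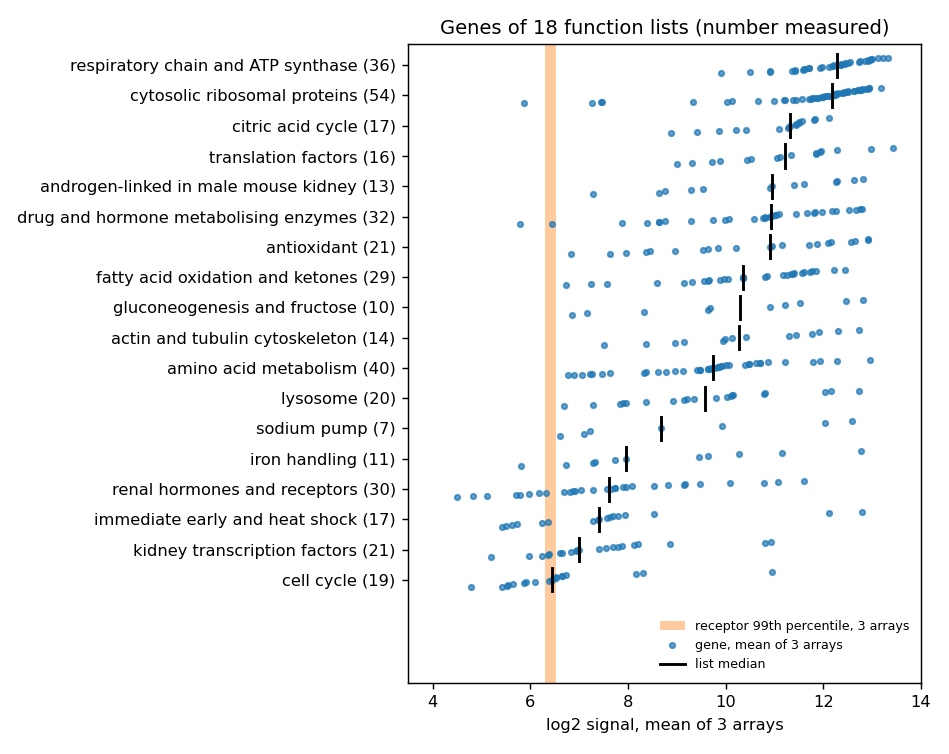
Mean log2 signal over 3 arrays (horizontal axis) of each measured gene (points) on the 18 function lists, with the list median as a black bar and the receptor 99th percentile of the 3 arrays as a band. Medians run from 12.28 for the respiratory chain and ATP synthase to 6.99 for kidney transcription factors and 6.44 for the cell cycle.

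Genes of the stress response were spread widely, and those of the cell cycle lay near the level of all genes. Of 17 immediate early and heat shock genes 11 were above background (64.7%, where 42.8% of all genes lie), with a list median of 7.41 beside 6.23 for all genes, led by the constitutive chaperones Hspa8 (12.79 ± 0.03) and Hsp90aa1 (12.12 ± 0.09). The inducible Hspa1a lay at 8.52 ± 0.11. Fos measured 5.62, 5.56 and 5.33 on arrays A, B and C, and with Fosb (5.63 ± 0.16) and Atf3 (5.41 ± 0.13) it was within background on all 3. Of 19 cell cycle genes 6 were above background on all arrays (31.6%) and 8 within it, where 42.8% and 49.8% of all genes lie. Their median of 6.44 was near the 6.23 of all genes. They were led by the replication clamp Pcna (10.94 ± 0.09), Mcm6 (8.30 ± 0.10) and Tyms (8.17 ± 0.60). Plk1 (5.41 ± 0.03) and Bub1 (4.79 ± 0.43), which act in mitosis, and Mcm3 (5.52 ± 0.09) were the dimmest, and Mki67 (5.87 ± 0.17) lay within background.

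Transcription factors of the kidney lay mostly in the lower part of the detected range. Of 21 measured 15 were above background on all arrays and 2 among the brightest 1000. Those were Ppargc1a (10.94 ± 0.07), the coactivator of mitochondrial growth, and the bile acid receptor Nr1h4 (10.80 ± 0.24). Hnf4a, which sets proximal tubule identity, measured 8.95, 8.74 and 8.87 on arrays A, B and C. Tfcp2l1 (8.20 ± 0.19) and Foxi1 (8.13 ± 0.24), factors of collecting duct cells, Maf (7.88 ± 0.05), the fatty acid sensor Ppara (7.80 ± 0.14), Tfap2b (7.69 ± 0.22) of the distal tubule, Pax8 (7.55 ± 0.12) and Hnf4g (7.40 ± 0.14) followed. Pax2 (6.99 ± 0.08), Sim1 (6.96 ± 0.10), Tcf21 (6.93 ± 0.30), Irx3 (6.82 ± 0.12) and Wt1 (6.64 ± 0.12) were just above the edge. Emx2 (6.38 ± 0.17), Esrra (6.35 ± 0.19) and Lhx1 (6.24 ± 0.20) straddled it.

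Hormones and their receptors ranged over the whole scale, with 22 of 30 above background on all arrays and 3 among the brightest 1000. Ghr (11.61 ± 0.10), the growth hormone receptor, the insulin receptor Insr (11.07 ± 0.15), Egf and Kl (10.09 ± 0.06), the coreceptor for the phosphate hormone FGF23, led. The parathyroid hormone receptor Pth1r (9.47 ± 0.05), the glucocorticoid receptor Nr3c1 (9.17 ± 0.08), the prostaglandin receptor Ptger3 (9.15 ± 0.21), the vitamin D receptor Vdr (8.83 ± 0.25) and Igf1r (8.52 ± 0.02) were well above the floor. Agt (8.07 ± 0.13), the precursor of angiotensin, Egfr (7.96 ± 0.22), the converting enzyme Ace (7.74 ± 0.17) and the vasopressin receptors Avpr1a (7.73 ± 0.52) and Avpr2 (7.27 ± 0.40) came next. The calcitonin receptor Calcr (5.11 ± 0.03), Agtr2 (4.83 ± 0.19) and Edn1 (6.18 ± 0.15) lay within background. Epo, which a few interstitial cells make on demand, measured 4.79, 4.38 and 4.30 on arrays A, B and C, where the receptor medians were 4.19, 4.22 and 4.22.

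Arrays A and B stood apart in opposite directions on several lists. Of 13 genes known to depend on androgen in the male mouse kidney, all above background and 8 among the brightest 1000, A was the highest of the 3 arrays for 10 (24.3% of all genes above background) and B the lowest for 11 (28.3% of all). The median difference of A from the mean of the other arrays was 0.27, and that of B was -0.26, beside -0.06 and 0.04 over all genes above background. The bile acid enzyme Cyp7b1 measured 10.57, 7.39 and 9.90 on arrays A, B and C, a 9.05-fold range. The organic anion carrier Slco1a1 measured 10.46, 8.04 and 10.11, a 5.34-fold range. Both were singled out after their values were seen, since no other gene above background had a range as wide. Cyp4a12a (8.64 ± 0.63) and Cyp4a12b (8.76 ± 0.65), fatty acid hydroxylases of male mice, went the same way, while Kap (12.81 ± 0.07), Odc1 (12.28 ± 0.03) and Gusb (7.28 ± 0.09) had SDs of 0.09 or less.

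Fatty acid oxidation followed the same order, with A highest for 18 of 29 genes and B lowest for 21. B was also lowest for 18 of 30 drug and hormone enzymes. In smooth muscle, podocyte, distal convoluted tubule, intercalated cell, endothelial and cytoskeletal genes the median difference of A was negative and that of B positive. Those are also the signs over all genes above background (-0.06 and 0.04). B was the highest array for 5 of 7 smooth muscle genes (41.4% of all genes above background), 8 of 9 podocyte genes and 9 of 14 distal convoluted tubule genes, and A the lowest for 6, 5 and 9 of them (51.2% of all). In lists this short several counts lie near these shares, such as A lowest for 5 of 9 podocyte and B highest for 6 of 11 endothelial genes. B was the highest for 8 of 13 intercalated cell, 6 of 11 endothelial and 9 of 14 cytoskeletal genes, and A the lowest for 10, 7 and 9. After quantile normalization B was the highest for 7, 5 and 9 of these, and A the lowest for 6, 7 and 9. Over all genes above background B was then the highest for 3172 of 8528 and A the lowest for 3271. For podocytes the median of A was -0.13, but -0.02 after quantile normalization of the arrays, with A lowest for 4 of 9. Mesangial and pericyte genes did not share the order, with B highest for 2 of 7 and medians of -0.01 for A and 0.02 for B, both of which changed sign after quantile normalization. Acta2, the smooth muscle actin, measured 6.80, 8.91 and 8.40 on arrays A, B and C. Array C stood highest for 6 of 10 principal cell genes of the collecting duct (34.3% of all genes above background) and lowest for 0 (20.5% of all), with A lowest for 7. After quantile normalization, which gives the 3 arrays 1 common distribution, C was the highest for 4 of these 10 and A the lowest for 5. Over all genes above background those counts were 2319 and 3271 of 8528. The median of B for principal cell genes was -0.02 in place of 0.03. Ribosomal genes were lowest on A in 46 of 53 and highest on B in 37, by medians of -0.08 and 0.07 only. After quantile normalization these counts were 33 and 34. The labels describe the 3 libraries in the same words, and what sets A and B apart was not tested.

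**Figure D5:**
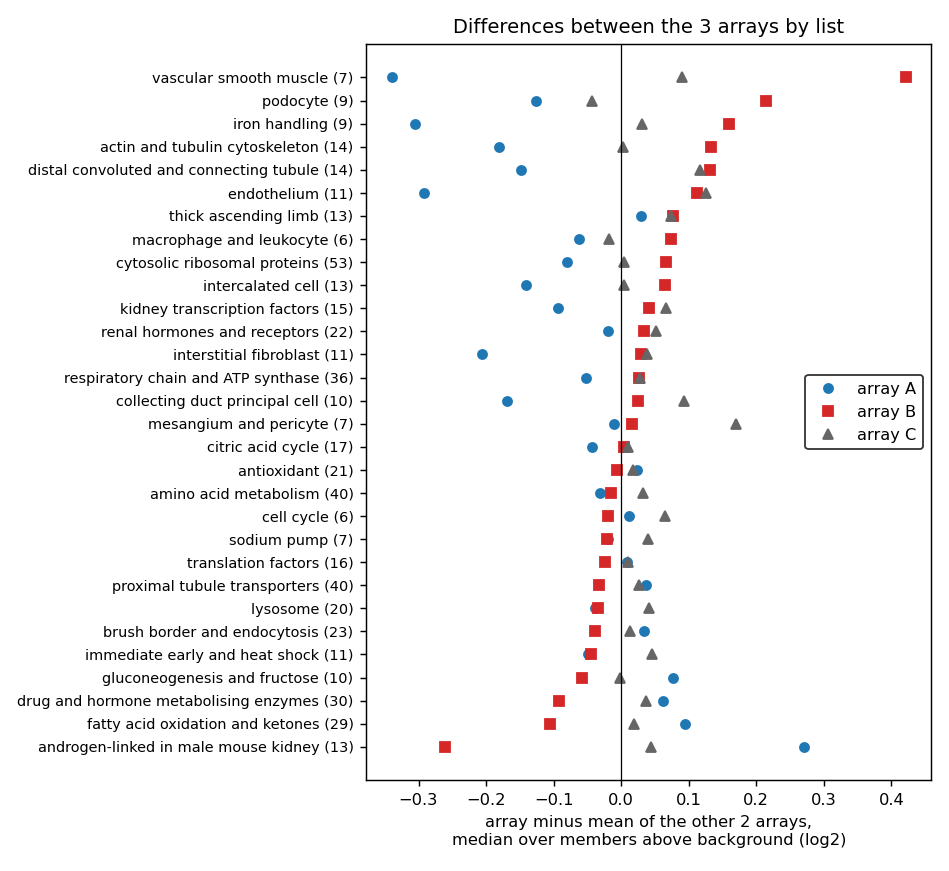
Difference of each array from the mean of the other 2 (horizontal axis, log2), as the median over a list's genes above background, for arrays A (circles), B (squares) and C (triangles), with the number of genes in brackets. Array B stands highest for smooth muscle (0.42) and podocytes (0.21) and lowest for androgen-linked genes (-0.26), where array A stands at 0.27.

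Among the brightest 1000 genes, 5 had the widest ranges over the 3 arrays. Ndrg1, a stress-responsive gene, measured 9.60, 11.23 and 10.72 on arrays A, B and C. Fabp7, a fatty acid binding protein, gave 10.50, 11.50 and 11.31, so that A was the lowest array for these. Bnip3, a mitochondrial gene induced by low oxygen, gave 10.86, 9.96 and 10.88. The lipase Lpl (11.46, 10.58 and 11.15) and Ugt8a (10.90, 10.12 and 10.66), a transferase of galactolipid synthesis, were lowest on B as well.

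The brightest genes were also short. In the RefSeq table the median span of a gene, introns included, was 5.68 kb for the brightest 100 and 16.5 kb for the brightest 1000, against 23.5 kb for all genes above background and 17.7 kb for 19919 genes of all.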

How the data were processed

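For each of the 3 arrays the file gives log2 signals of 35557 probe sets, between 2.27 and 13.98, used here as deposited. The submitters' processing notes name Affymetrix Expression Console. How it summarised probes, and whether it normalized the arrays to each other, is not given in the sources used here. The number of arrays limits the precision, and 12 columns of other samples were not used. That the scale is log2 was read from the values.

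Gene names came from the platform annotation, which lists 23410 probe sets. Of these 21789 carry 1 symbol and 1621 several, and 12147 probe sets are unlisted. The RefSeq table of GRCm38.p6 matched 21698 by gene number and changed 0 symbols. The annotation names no genome build. A gene with several probe sets was given by its brightest.

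Genes were ranked by their mean over the 3 arrays. No test was made, since the arrays form 1 group. The 34 gene lists and the choice of arrays were made with earlier results of these data known. Classes of the brightest 100, symbol families and the quantile setting for array differences were chosen after their values were seen. Named genes are the 30 brightest, the 4 brightest and 3 dimmest of each list, the 3 markers, the 3 brightest receptors, the 5 with the widest range in the brightest 1000, and any transcription factor or hormone gene of those lists. Other genes were named after their values were seen. Alternatives varied the choice of probe set, the mean, the receptor edge, the normalization and the arrays used. The ranking code was run on simulated data in which 1000 genes were set far above a common floor. That run checks the code and not the order of closely spaced genes. Python 3.11.15, numpy 2.4.6, pandas 2.3.3, scipy 1.17.1 and matplotlib 3.10.9 were used.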

Additional observations from a re-analysis of the deposited data

Results flagged for a closer look

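Of the 12147 probe sets that the platform annotation does not list, 3011 (24.8%) lay above the receptor 99th percentile on all 3 arrays, which is signal outside the named genes. Among them 105 reached the level of the gene at rank 100 and 531 that of the gene at rank 1000. They are unnamed here.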

How the results depend on the processing

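Of 279 recomputed results, 266 kept within 1.5 times the value given, or within its interval, and 13 moved. The count of genes above background depends on its edge, with 3546 genes above the highest receptor gene of each array, against 8528. The count of cell type genes within background was 18 with the 95th percentile of receptors and 126 with the highest receptor gene, against 57. Of 238 counts of list genes among the brightest 1000, 10 moved. With genes of only 1 probe set, ribosomal protein genes fell to 10 from 47, since most of them have several and were not ranked, lysosomal genes rose to 8 from 5, and the other moved counts changed by 1 or 2 genes. Without array A, B or C the count of genes above background was 8594 to 9196, and 987 to 991 of the brightest 1000 remained. With the mean of a gene's probe sets 935 remained. With genes of only 1 probe set 776 remained, since 224 of the 1000 have several, as do 41 of the brightest 100. After quantile normalization of the 3 arrays 999 remained. In the array differences, the medians of A and B kept their sign after it for smooth muscle (-0.34 and 0.41), podocytes (-0.02 and 0.16), distal convoluted tubule (-0.06 and 0.09), androgen-linked genes (0.32 and -0.29), fatty acid oxidation (0.12 and -0.12) and ribosomal proteins (-0.04 and 0.03), with array B the highest for 6 of 14 distal genes in place of 9 and for 7 of 9 podocyte genes in place of 8. Over all genes above background B was then the highest for 3172 of 8528. The medians of both A and B changed sign for mesangium and kidney transcription factors, and that of B alone for principal cells and the respiratory chain. That of A alone changed sign for leukocytes, amino acid metabolism, the sodium pump, lysosomal genes, immediate early and heat shock genes, and hormones and receptors. No paired analysis was possible because the 3 arrays form 1 group with nothing to pair. With 3 arrays an SD is itself uncertain, signal near the receptor edge cannot be told from background, and a gene within background is not shown to be absent.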

Other observations

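Whole gene families, grouped by symbol after their values were seen, gave shares above background on both sides of the 42.8% of all genes. Of 40 proteasome subunits 38 were above background on all arrays and 22 among the brightest 1000, with Psma3 at 12.59. Of 21 subunits of the vacuolar proton pump 20 were above background, and of 35 subunits of complex I 34. Of 371 solute carriers 183 were above background (49.3%), a share near that of all genes. Of 87 cytochrome P450 genes 25 were above it (28.7%), under that of all genes, although 8 were among the brightest 1000. The list of drug and hormone enzymes, chosen by hand, had 30 of 32. Of 52 keratin genes 7 were above background (13.5%), the brightest being Krt8 (9.95), the keratin of simple epithelia.

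Potassium channels had 16 of 92 genes above background (17.4%), with Kcnj16 at 11.68, and beta defensins 4 of 40, with Defb1 at 12.70. Of 44 collagen genes 21 were above background (47.7%, near the 42.8% of all genes) and 0 among the brightest 1000, Col8a1 being the brightest at 7.50. Hox genes, which mark the position of cells along the body, had 18 of 37 above background (48.6%, likewise near it), with Hoxd8 at 9.46. MicroRNA hairpins had 41 of 291 above background (14.1%), the brightest being Mir598 at 9.92. Taste receptors, like the olfactory ones a class of sensory cells, had 0 of 37 above background, with a median of 4.14, beside 4.28 for olfactory and 3.90 for vomeronasal receptors.

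Probe sets that name several genes were left out of the ranking. Of these 1621 probe sets, 708 lay above background on all arrays, and 108 reached the level of the gene at rank 100.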
